A study of Sus scrofa with 4 samples.

Results

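The leukocyte surface antigens that carry a CD (cluster of differentiation) number were followed in the liver of piglets fed with or without L-carnitine. Members were all genes to which the array annotation gives a single symbol made of CD, a number and optional letters, with CD36 and CD14 left out. This gave 40 genes out of 6765 genes with 1 symbol, measured by 66 probe sets, and the probe set with the highest mean log2 signal stood for each gene. Of the 40 genes, 24 lay at or above the median signal of all probe sets and 16 below it. The 16 are called dim in the following, and a signal is a property of its probe set and does not rank transcripts by abundance. By cell type, 11 are antigens of T and NK cells, 3 of B cells, 10 of Kupffer cells and other myeloid cells, and 16 are broadly expressed. The myeloid class is mixed and takes in antigens of macrophages, dendritic cells and antigen presentation. The broad class includes antigens of all leukocytes, endothelium and stroma. CD5L, a secreted protein, is a member by its symbol only.

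The carnitine group received a basal diet with 500 mg added L-carnitine per kg for 21 days, and the control group the basal diet alone. All animals were male (German Landrace x Large White) x Pietrain pigs, 4 weeks old at the start and 7 weeks old when the liver was taken, 2.5 h after feeding. Each array was hybridised with RNA pooled from 4 pigs, with 2 pools per diet, so that 4 single-colour porcine GeneChips stand for 8 pigs per diet. The spread between animals was not measured, and n is the number of pools.

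CD antigens are surface proteins by which immune cells are sorted and through which many of them signal. The T cell receptor signals through the CD3 chains and the zeta chain CD247, with CD4 or CD8 as co-receptor, and the B cell receptor signals through CD79. The liver holds its own macrophages, the Kupffer cells, which line the sinusoids and carry scavenger receptors such as CD163, together with many resident T and NK cells. Tetraspanins such as CD9 and CD81, the complement regulators CD46, CD55 and CD59, and CD47, which restrains phagocytosis, are found on most cells, hepatocytes included. In whole liver RNA, fewer cells of a type and less RNA per cell cannot be told apart.

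The 4 arrays had median signals from 109 to 114. All 10 measured hepatocyte markers, ALB among them, lay above the median signal, as did 13 of 17 further genes of Kupffer cells and macrophages and 7 of 11 of T and NK cells, whereas 0 of 4 neutrophil markers did. The 3' to 5' signal ratio, which reflects RNA integrity, was computed for 7 pairs of control probe sets. It was higher on both carnitine arrays than on both control arrays for 4 pairs of GAPDH and actin, for example GAPDH at 18.7 and 16.1 against 12.5 and 11.6. The other 3 pairs overlapped, among them another GAPDH pair at 9.65 and 11.1 on carnitine arrays against 10.2 and 9.04 on control arrays, and EF1A at 23.4 and 29.6 against 57.9 and 18.2. The part of these ratios in the differences below was not tested. The smallest two-sided p of an exact permutation test with 2 pools per diet is 0.333, so p-values come from limma fitted over all 23999 probe sets. They set the diet difference against the spread between pools of a diet, not between animals. For each probe set limma draws that spread toward a trend over all probe sets.

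No CD antigen passed the adjusted p, and those above the median signal lay mostly below 0. Of the 40 genes 0 passed an adjusted p of 0.05 in limma, where the lowest adjusted p was 0.463, while 0.00417% of all probe sets passed. At an unadjusted p under 0.05, 3 genes were lower in carnitine pools (CD9, CD151 and CD38), against 3.99% of all genes, and 1 was higher (CD209), against 6.56% of all genes. These counts depended on single pools, with 0 lower and 0 higher without carnitine pool 1, and 5 lower and 4 higher without control pool 2. A difference of 2-fold or more was found for 6 of the 40 genes, against 8.93% of all genes, and 5 of these 6 were dim. Among the 24 antigens above the median signal 1 reached 2-fold, CD9, against 3.47% of all genes above that signal.

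Among the 24 antigens above the median signal, 19 had a log2 fold change (carnitine minus control) below 0 and 5 above 0, with a median of -0.24. Only 10 of the 24 kept their direction when each pool was left out in turn. Over all 5040 genes above the median signal, 49.7% lay below 0 and the median was 0.0032. Of the 10 hepatocyte markers, all above that signal, 8 also lay below 0 and 2 above, with a median of -0.12. Both carnitine pools lay below both control pools for 5 of the 24, namely CD9, CD151, CD164, CD47 and CD8A, against 21.6% of the genes above the median signal. Both lay above both control pools for 0 of the 24, against 23.7%. The median absolute log2 difference of the 24 antigens was 0.25 between the diets, 0.35 between the 2 carnitine pools and 0.34 between the 2 control pools. The first compares means of 2 pools and the others compare single pools, so their sizes are not on a like scale. Over all 5040 genes above the median signal the 3 values were 0.25, 0.21 and 0.30.

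**Figure D1:**
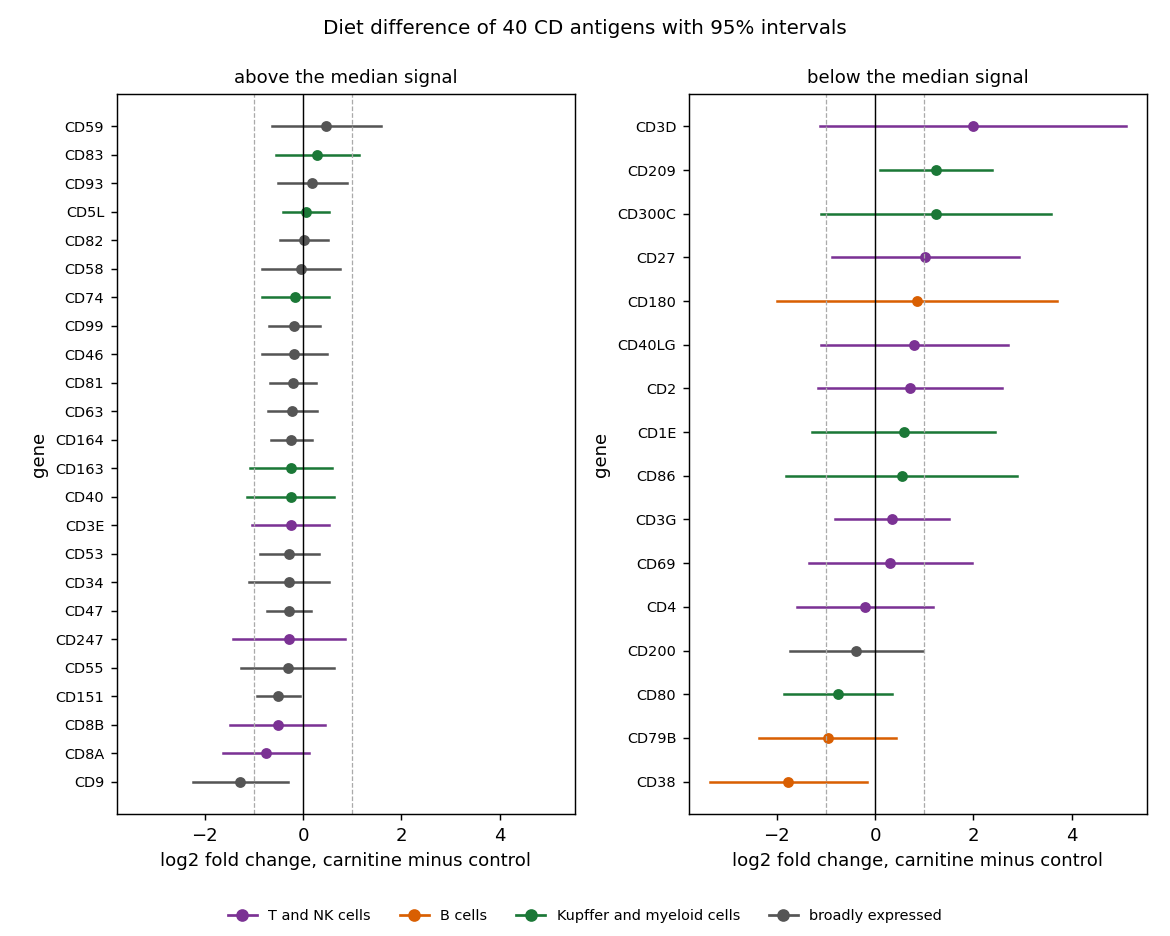
Log2 fold change (carnitine minus control, x axis) of the 40 CD antigens (y axis) with 95% intervals from limma as lines, coloured by cell type, above the median signal at left and below it at right; dashed lines mark 2-fold. The intervals of CD9, CD151, CD38 and CD209 do not reach 0 and all others cross it, and intervals are wider at right.

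Broadly expressed antigens made up 15 of the 24 genes above the median signal, and 12 of these 15 had lower mean log2 signals in carnitine pools, with a median log2 fold change of -0.22. The median was -0.21 against control pool 1 alone and -0.26 against control pool 2 alone, and -0.30 without carnitine pool 1 and -0.18 without carnitine pool 2. Single genes were less steady, as 7 of the 15 kept their direction when each pool was left out in turn.

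The tetraspanins, membrane organizers that bind integrins and other surface proteins, include the broadly expressed genes with the clearest differences. CD9, a tetraspanin of platelets, endothelium and many epithelia, had signals of 100.5 and 206 in carnitine pools, against 294 and 412 in control pools. Both carnitine pools lay below both control pools, and the 2 carnitine pools stood further apart on the log2 scale than the nearest pools of the 2 diets. The log2 fold change was -1.28 (standard error 0.41, 95% interval -2.24 to -0.32, unadjusted p = 0.0162, adjusted p = 0.463 from limma), and it ranged from -1.79 without carnitine pool 2 to -0.76 without carnitine pool 1.

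CD151, a tetraspanin that holds laminin-binding integrins at the cell surface, had 1112 and 1044.5 in carnitine pools against 1583 and 1469.5 in control pools. The pools of each diet lay close together and the diets did not overlap. Its mean signal was 1078 ± 47.7 in carnitine pools and 1526 ± 80.2 in control pools (SD, n = 2 pools each). The log2 fold change was -0.50 (standard error 0.19, 95% interval -0.95 to -0.056, unadjusted p = 0.0323, adjusted p = 0.527 from limma) and stayed between -0.55 and -0.45 whichever pool was left out.

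The 4 other tetraspanins overlapped between the diets. CD81, part of the B cell co-receptor complex and an entry factor for hepatitis C virus in human hepatocytes, had 7006 and 5939 in carnitine pools against 6755 and 8177 in control pools. CD63, a tetraspanin of late endosomes and lysosomes, had 2806 and 3424 against 4081 and 3187. CD53, a tetraspanin of leukocytes, had 646 and 476 in carnitine pools against 754 and 602 in control pools. CD82 was nearly level, with 1579 and 1299 against 1553 and 1291 (log2 fold change 0.017, 95% interval -0.48 to 0.51). Across the 6 tetraspanins 5 lay below 0 and 1 above, with a median of -0.25. Of 8 measured genes in a list of TSPAN relatives and the complement receptor CR1, 4 lay below 0 and 4 above, and 0 had an unadjusted p under 0.05.

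CD164 and CD47 were lower by small amounts. CD164, a sialomucin of haematopoietic progenitors and many other cells, had 4156 and 3847 in carnitine pools against 4689.95 and 4771 in control pools, with no overlap (log2 fold change -0.24, standard error 0.18, unadjusted p = 0.212, limma). CD47, the ligand by which cells signal to SIRPA on macrophages, had 3989.9 and 3424 in carnitine pools against 4761 and 4266 in control pools (log2 fold change -0.29, standard error 0.19, unadjusted p = 0.172, limma). A dimmer probe set of CD47 gave 232 and 179 in carnitine pools against 659 and 305 in control pools (log2 fold change -1.14, standard error 0.40, unadjusted p = 0.0236, limma). Its remaining probe set overlapped between the diets, at 730.4 and 509 against 742 and 582 (log2 fold change -0.11). CD164 was the one gene whose probe sets separated the diets in opposite directions, since a dimmer one had 1041.5 and 1187 in carnitine pools against 993 and 998 in control pools (log2 fold change 0.16, standard error 0.20).

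The 3 complement regulators, which protect host cells from complement, did not move together. CD46, a cofactor for the breakdown of C3b and C4b, had 1159.7 and 698 in carnitine pools against 932 and 1115 in control pools. CD55, or decay-accelerating factor, had 152 and 149.8 in carnitine pools against 264 and 134 in control pools. CD59, which blocks the membrane attack complex, had 624 and 479.6 in carnitine pools against 232 and 667 in control pools. By these probe sets, the brightest of each gene, the diets overlapped in all 3 genes. For CD55 and CD59 the 2 control pools lay on either side of both carnitine pools. The log2 fold change of CD59 was 1.24 against control pool 1 alone and -0.28 against control pool 2 alone, and that of CD55 was -0.80 and 0.18. A dimmer probe set of CD59 was higher without overlap, at 62.0 and 60.2 in carnitine pools against 57.5 and 35.6 in control pools. A dimmer one of CD55 was lower without overlap, at 17.7 and 25.1 against 62.3 and 25.4. The other dimmer probe sets of the 3 genes overlapped.

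The remaining broadly expressed antigens overlapped between the diets by their brightest probe sets. CD99, an adhesion molecule of leukocyte transmigration, had 1045 and 1216 in carnitine pools against 1123 and 1438 in control pools. CD58, the ligand of CD2, had 142 and 161 against 135 and 181. CD34, an antigen of haematopoietic progenitors and endothelium, had 132 and 208 in carnitine pools against 192 and 212 in control pools. These 3 genes showed no separation of the diets. CD93, a receptor of endothelium and myeloid cells, had 227 and 331 in carnitine pools against 236 and 245 in control pools. CD200, which restrains myeloid cells through its receptor, was the only dim gene of this class, at 45.0 and 29.2 against 57.3 and 38.9. Of 9 measured endothelial markers 0 had an unadjusted p under 0.05, and 5 of the 6 above the median signal were higher in control pool 2 than in control pool 1.

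**Figure D2:**
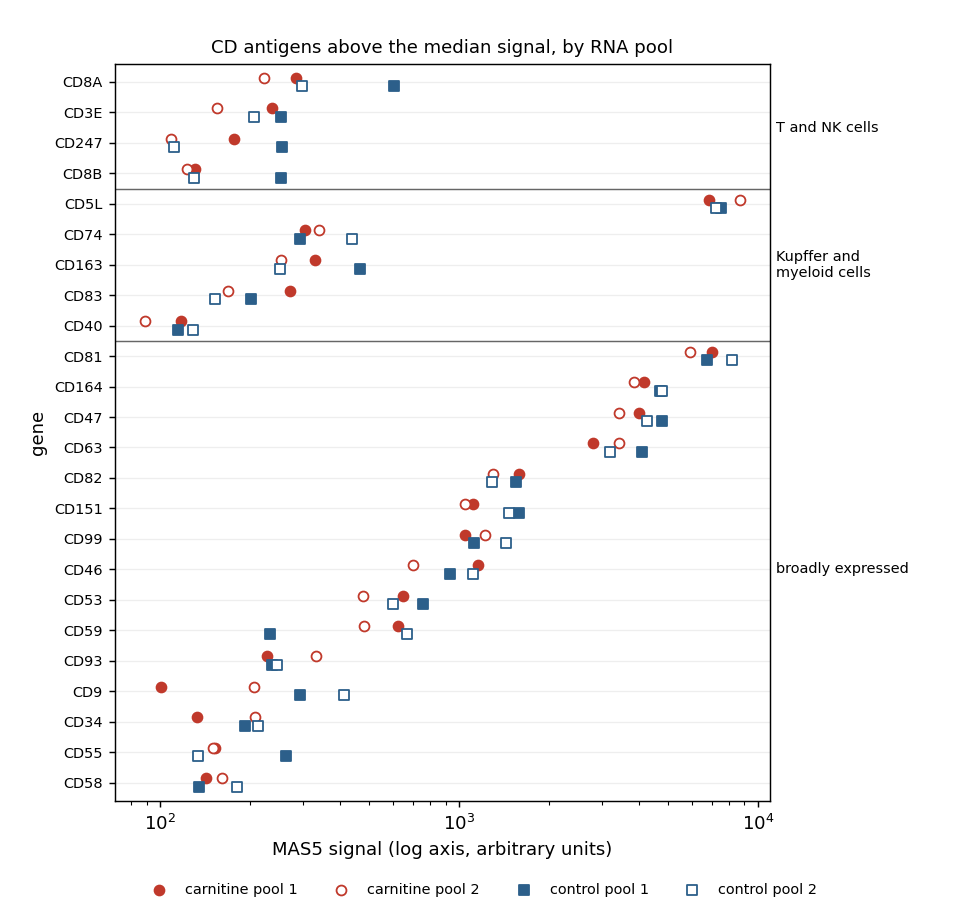
MAS5 signal (x axis, log scale) of the 24 CD antigens above the median signal (y axis) in each RNA pool, with red circles for carnitine and blue squares for control, filled for pool 1 and open for pool 2. The circles lie left of both squares for CD8A, CD164, CD47, CD151 and CD9, and for CD8A and CD8B control pool 1 stands far to the right of the other 3 pools.

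Of the 11 antigens of T and NK cells 4 lay above the median signal, and all 4 had log2 fold changes below 0, with a median of -0.40. The size of the difference varied with the control pool. The median was -0.94 against control pool 1 alone and -0.068 against control pool 2 alone, and in limma 0 of the 11 genes had an unadjusted p under 0.05.

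CD8A and CD8B, the chains of the CD8 co-receptor of cytotoxic T cells, lie next to each other in the Sscrofa11.1 gene table, with 0 protein-coding genes between them. CD8A had signals of 284 and 222 in carnitine pools, against 604 and 299 in control pools. CD8B had 131 and 123 in carnitine pools against 254 and 129.6 in control pools. For both chains control pool 1 was high, at 2.02 times control pool 2 for CD8A and 1.96 times for CD8B, and the other 3 pools lay close together. The log2 fold change was -0.76 for CD8A (standard error 0.37, 95% interval -1.64 to 0.12, unadjusted p = 0.0817, adjusted p = 0.630 from limma). It was -0.52 for CD8B (standard error 0.41, unadjusted p = 0.244, limma). Against control pool 2 alone the values were -0.25 for CD8A and -0.033 for CD8B.

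CD247, the zeta chain, had 176 and 109 in carnitine pools against 256 and 111 in control pools, so that control pool 1 was again the highest at 2.29 times control pool 2. Its log2 fold change of -0.29 (standard error 0.48) was 0.31 against control pool 2 alone. The other 3 probe sets of CD247 were dim, and the brightest of them gave 22.6 and 5.11 against 52.9 and 27.3. CD3E, a signalling chain of the CD3 complex, had 236 and 155 in carnitine pools against 253 and 205 in control pools, with overlap between the diets (log2 fold change -0.25, standard error 0.33).

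CD3E, CD3D and CD3G follow each other in the gene table, in this order and with 0 genes between neighbours, and CD3D and CD3G were dim. CD3D had 53.9 and 60.1 in carnitine pools against 3.05 and 67.0 in control pools. Its log2 fold change of 1.99 rests on the low value of control pool 1 and was -0.24 without that pool. CD3G had 55.4 and 60.3 in carnitine pools against 47.3 and 43.6 in control pools (log2 fold change 0.35, standard error 0.49). Among the 4 chains, CD247 included, control pool 1 was the highest pool for CD3E and CD247 and the lowest for CD3D.

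Of the other 5 dim antigens of T and NK cells, 4 overlapped between the diets. CD4, the co-receptor of helper T cells, had 31.6 and 64.2 in carnitine pools against 63.2 and 42.5 in control pools. CD2, an adhesion receptor of T and NK cells, had 58.8 and 40.5 against 14.1 and 62.2. CD27, a costimulatory receptor of the TNF receptor family, had 33.6 and 46.7 in carnitine pools against 38.6 and 9.79 in control pools. For CD2 and CD27 the 2 control pools lay far apart. CD69, an early activation antigen, had 52.3 and 37.9 in carnitine pools against 64.3 and 20.0 in control pools. CD40LG, the ligand by which helper T cells engage CD40, had 18.3 and 11.9 in carnitine pools against 8.40 and 8.50 in control pools. It did not overlap between the diets, like CD3G, but its 95% interval ran from -1.10 to 2.70.

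Other genes of T and NK cells, from a list of genes whose symbols hold no CD number, lay mostly below 0. Of 11 measured genes 9 lay below 0 and 2 above, with 0 at an unadjusted p under 0.05 in limma. GZMH, a granzyme of cytotoxic granules, had 121 and 94.1 in carnitine pools against 212 and 155 in control pools (log2 fold change -0.77, unadjusted p = 0.0697, limma). CCL5, a chemokine of activated T and NK cells, had 943 and 733 against 1369 and 1015 (log2 fold change -0.50, unadjusted p = 0.0757, limma). GNLY, the granule protein granulysin, had 337 and 235 in carnitine pools against 629 and 347 in control pools (log2 fold change -0.73, unadjusted p = 0.0778, limma). These 3 were named because their p was the smallest of the 11 genes. All 3 separated the diets, with control pool 1 the highest. Of the 7 genes above the median signal 6 were higher in control pool 1 than in control pool 2, as were 2632 of all 5040 genes above that signal. In 5 of the 7 both carnitine pools lay below both control pools, against 21.6% of all such genes. Their median log2 fold change was -0.50, against -0.86 without control pool 2 and -0.24 without control pool 1.

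**Figure D3:**
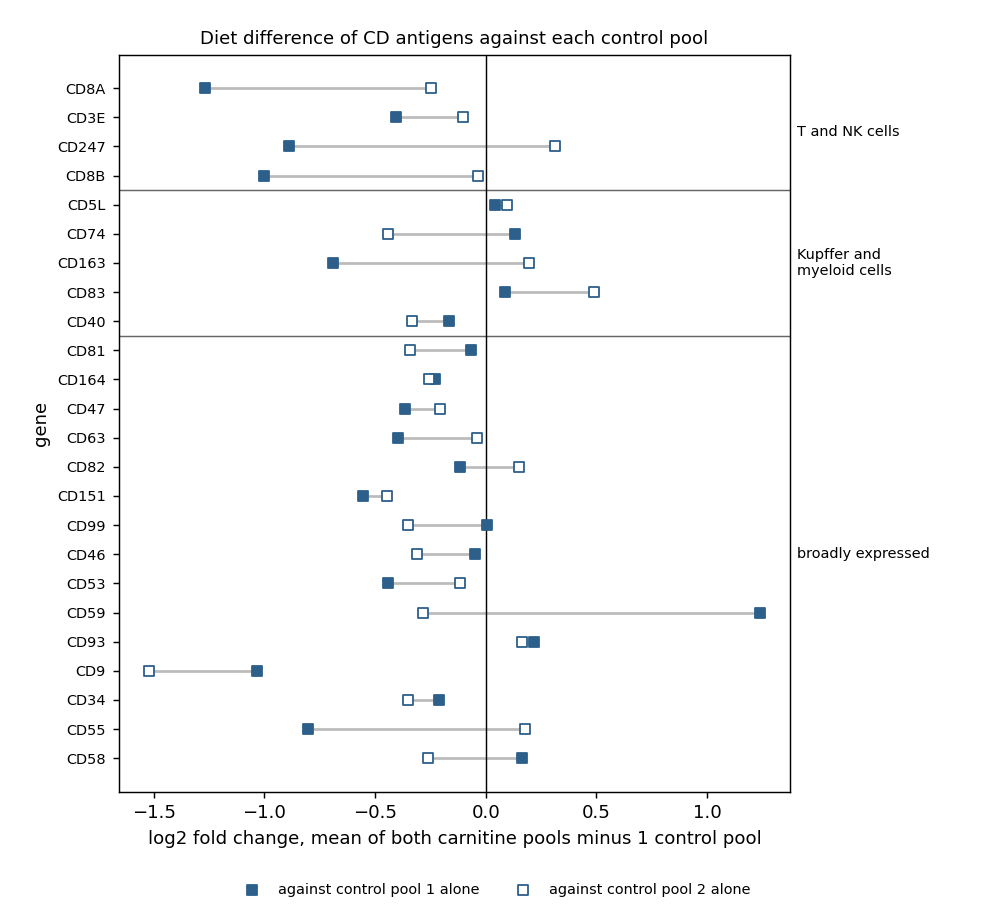
Log2 fold change (x axis) of the mean of both carnitine pools against control pool 1 alone (filled squares) and against control pool 2 alone (open squares) for the 24 CD antigens above the median signal (y axis), with a line joining the 2 values of a gene. For CD8A, CD8B and CD247 the filled square lies far to the left, with values from -1.27 for CD8A to -0.89 for CD247. The open square of CD247 lies right of 0, at 0.31. Both squares lie left of 0 for CD8A, CD8B, CD151 and CD9, among others.

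All 3 antigens of B cells were dim, and 2 of the 3 did not overlap between the diets. Of the 16 dim antigens 6 did not overlap in either direction, against 34.6% of all genes below the median signal. CD79B, the signalling chain of the B cell receptor, had 70.5 and 59.8 in carnitine pools against 225 and 71.1 in control pools. Control pool 1 was 3.17 times control pool 2, which lay next to the carnitine pools. Its log2 fold change of -0.96 (standard error 0.59, unadjusted p = 0.145, limma) was -0.13 against control pool 2 alone.

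CD38, an ectoenzyme that consumes NAD and marks plasma cells as well as activated lymphocytes, had 9.98 and 11.6 in carnitine pools against 35.6 and 37.5 in control pools. The pools of each diet nearly coincided and the diets were well apart. The log2 fold change was -1.77 (standard error 0.68, 95% interval -3.36 to -0.17, unadjusted p = 0.0344, adjusted p = 0.533 from limma), and it lay between -1.87 and -1.66 whichever pool was left out. Its size depended on how low signals were treated, at -0.50 with a floor at each array's 25th percentile and -0.43 with an offset of 64. These signals are among the dimmest of the members, and detection calls were not used here. CD180, a Toll-like receptor relative of B cells, had 98.3 and 15.9 in carnitine pools against 62.5 and 7.70 in control pools, with pool 1 above pool 2 in both diets.

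All 5 further genes of B and plasma cells that were measured lay below 0, against 50.9% of all genes, and 2 of them were lower at an unadjusted p under 0.05, against 3.99% of all genes. BLNK, an adaptor of B cell receptor signalling, had 105 and 113 in carnitine pools against 294 and 199 in control pools (log2 fold change -1.15, standard error 0.34, unadjusted p = 0.0117, adjusted p = 0.445 from limma). TNFRSF17, or BCMA, a receptor of plasma cells, was dim at 7.35 and 19.6 in carnitine pools against 51.2 and 43.9 in control pools (log2 fold change -1.98, standard error 0.74, unadjusted p = 0.0309, limma). BTK, a kinase of the same pathway, had 136 and 120.3 against 163 and 142. JCHAIN, which joins secreted IgA and IgM and comes from plasma cells, overlapped between the diets with 1519 and 1802 in carnitine pools against 2528 and 1449 in control pools.

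The Kupffer and other myeloid antigens above the median signal did not separate the diets by their brightest probe sets. All 5 overlapped, with a median log2 fold change of -0.15 that turned to 0.043 against control pool 1 alone and to 0.096 against control pool 2 alone. CD5L, a scavenger protein that tissue macrophages secrete, had 6867 and 8692 in carnitine pools against 7501 and 7229.6 in control pools. With a log2 fold change of 0.069 and a 95% interval of -0.40 to 0.54, a change of 2-fold in either direction lies outside its interval.

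CD163, the haptoglobin-haemoglobin scavenger receptor of Kupffer cells and in pigs a receptor for the PRRS virus, gave opposite signs with its 2 probe sets. The brighter had 328 and 254 in carnitine pools against 466 and 252 in control pools (log2 fold change -0.25, standard error 0.35). The dimmer had 173 and 196 in carnitine pools against 43.3 and 99.5 in control pools, which gave a fitted difference of 1.49 on the log2 scale (standard error 0.48, unadjusted p = 0.0170, adjusted p = 0.466 from limma). Which of these follows the CD163 transcript was not tested, and the mean of both gave 0.62. CD74, the invariant chain that guides MHC class II molecules, had 305 and 339.9 in carnitine pools against 294 and 438 in control pools.

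The receptors and ligands by which antigen-presenting cells engage T cells fell on both sides of 0. CD83, an antigen of mature dendritic cells, had 271 and 168 in carnitine pools against 201 and 152 in control pools. CD40 had 117 and 89.0 against 114 and 128. CD80, a ligand of CD28, was dim at 51.5 and 42.4 in carnitine pools against 73.8 and 83.6 in control pools (log2 fold change -0.75, standard error 0.46, unadjusted p = 0.150, limma). By the brightest probe set only CD80 of these separated the diets, and its other probe set overlapped at 29.0 and 33.3 against 23.3 and 31.4. A dimmer probe set of CD83 was higher without overlap, at 10.2 and 23.3 in carnitine pools against 6.71 and 1.78 in control pools. A dimmer one of CD40 was lower without overlap, at 38.2 and 47.5 against 50.2 and 83.6. The remaining probe set of CD40 overlapped. CD86, the other ligand of CD28, had 27.9 and 96.2 in carnitine pools against 14.1 and 90.2 in control pools, with pool 1 far below pool 2 in both diets.

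CD209, a C-type lectin of dendritic cells and macrophages, was the only gene of the 40, by its brightest probe set, that was higher in carnitine pools at an unadjusted p under 0.05. It had 87.5 and 76.6 in carnitine pools against 32.6 and 36.6 in control pools. Mean signals were 82.0 ± 7.66 in carnitine pools and 34.6 ± 2.81 in control pools (SD, n = 2 pools each), below the median signal of 111 in both. The log2 fold change was 1.25 (standard error 0.49, 95% interval 0.10 to 2.39, unadjusted p = 0.0363, adjusted p = 0.538 from limma) and lay between 1.15 and 1.34 when each pool was left out, and at 0.57 with an offset of 64. CD300C, an activating receptor of myeloid cells, had 15.8 and 69.5 in carnitine pools against 7.43 and 26.4 in control pools. CD1E, which helps to load lipid antigens, had 14.2 and 39.3 in carnitine pools against 18.2 and 13.6 in control pools, and both genes overlapped between the diets.

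Further genes of Kupffer cells and macrophages lay mostly below 0 where they were above the median signal, although in limma 0 of the 17 measured had an unadjusted p under 0.05. Of the 13 above the median signal 10 lay below 0 and 3 above, with a median log2 fold change of -0.32 that ranged from -0.38 to -0.17 when each pool was left out. MRC1, the mannose receptor CD206 of macrophages and sinusoidal endothelium, had 1088 and 706 in carnitine pools against 1138 and 1812 in control pools (log2 fold change -0.71, unadjusted p = 0.0524, limma). C1QC, a chain of complement C1q made by macrophages, had 1417 and 941 against 1789.9 and 1582 (log2 fold change -0.54, unadjusted p = 0.0617, limma). Both carnitine pools lay below both control pools for 8 of these 13 macrophage genes, against 21.6% of all genes above the median signal, and above both for 2, against 23.7%. Of 9 genes of the class II pathway 7 lay below 0 and 2 above. Only SLA-DOA was lower at an unadjusted p under 0.05 in limma, against 3.99% of all genes. It was dim, with 21.4 and 7.61 in carnitine pools against 30.2 and 81.6 in control pools. SLA-DRA, above the median signal, separated the diets the other way. It had 450 and 435 in carnitine pools against 196 and 389 in control pools (log2 fold change 0.68, unadjusted p = 0.0950, limma). All 7 class II genes above the median signal were higher in control pool 2 than in control pool 1.

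Of 6 measured erythroid and platelet markers 5 lay below 0 in their log2 fold change, and HBB was level at 309.7 and 299 in carnitine pools against 278 and 301 in control pools. ALAS2, the erythroid enzyme of heme synthesis, had 358 and 239.6 in carnitine pools against 644 and 917 in control pools (log2 fold change -1.39, standard error 0.30, unadjusted p = 0.00222, adjusted p = 0.342 from limma). Their part in the differences of CD antigens was not tested.

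Signals of the 16 dim antigens varied more than those above the median. Their standard errors ran from 0.46 to 1.32 on the log2 scale, with a median of 0.75, whereas those of the other 24 ran from 0.18 to 0.48. Here 11 genes lay above 0 and 5 below, the opposite balance to the brighter genes, and the median log2 fold change was 0.56. Over all 1725 genes below the median signal 54.1% lay below 0 and the median was -0.062. Of the 16 dim antigens 9 kept their direction when each pool was left out in turn. Between the 2 control pools 8 of the 16 differed by 2-fold or more, against 5 between the carnitine pools and 5 between the diets. Among all 1725 genes below the median signal these counts were 647, 556 and 429. Diets are compared here as means of 2 pools. Several probe sets exist for 16 of the 40 genes, and in 9 of these 16 the log2 fold changes had both signs.

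**Figure D4:**
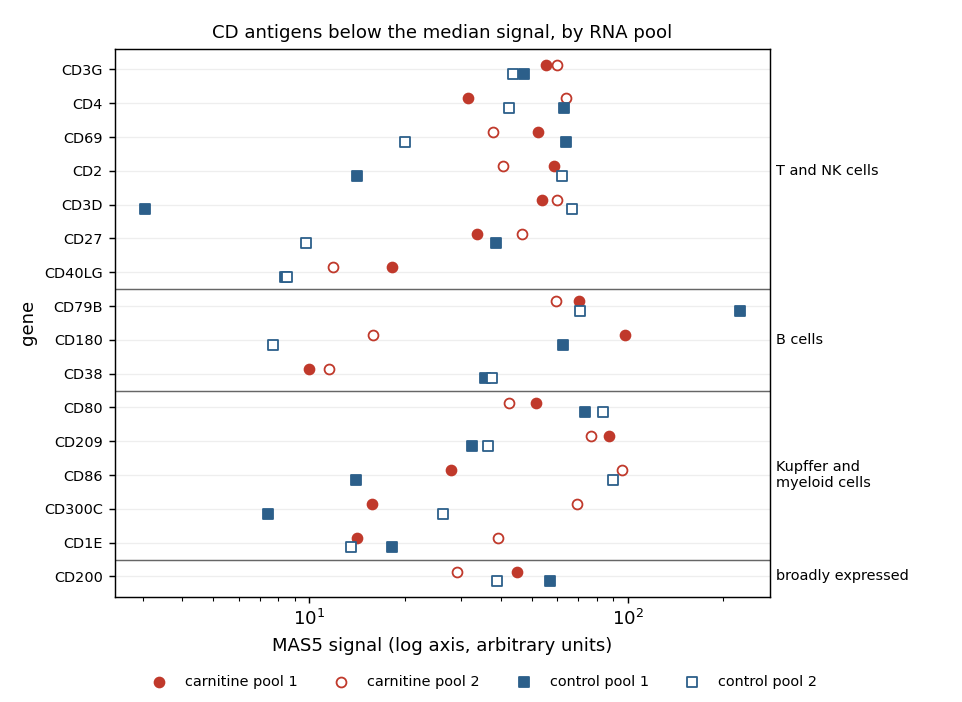
MAS5 signal (x axis, log scale) of the 16 CD antigens below the median signal (y axis) in each RNA pool, with red circles for carnitine and blue squares for control, filled for pool 1 and open for pool 2. CD38 and CD209 show tight pairs that lie apart, whereas CD3D, CD2, CD180 and CD86 spread widely within a diet.

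The probe set that the study's list of lowered transcripts names CD109 has no symbol in the annotation and is not among the 40 genes. Its signals were 27.7 and 1.13 in carnitine pools against 19.8 and 26.5 in control pools, with overlap between the diets (log2 fold change -2.03, standard error 1.45, unadjusted p = 0.204, limma).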

How the data were processed

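The values deposited are linear MAS5 signal intensities, and the trimmed mean is the same on all 4 arrays. Tools named by the submitters in their processing notes are MAS5 5.0, Expression Console 1.1 and GCOS 1.1.2. Arrays have no read depth, and 4 arrays limit the precision. Here log2 signals, with no pseudocount, of 23999 probe sets (124 controls left out) were fitted with limma 3.58.1 in R 4.3.3 (lmFit, eBayes with a variance trend, 2 residual degrees of freedom), and p-values were adjusted over all probe sets by Benjamini-Hochberg at 0.05. The fit was tested on simulated data.

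In the probe annotation 10069 probe sets carry 1 symbol, 198 carry several and 13732 carry no symbol. Of the genes left out by rule, CD14 has 2 probe sets. No genome coordinates were used, since the annotation names no build; gene order came from the Sscrofa11.1 RefSeq table. Named were members that separated the diets at an unadjusted p under 0.05, lineage-defining antigens, the 3 with the highest signal of each cell type and CD109, with up to 3 genes of smallest p per further list; the rest were added to account for every member. HBB and JCHAIN were chosen after their values were seen. Members, cell type classes and lists were chosen with earlier results of these data known. Groups came from the sample titles. Alternatives were quantile normalization, median centring, a floor, an offset, probe set averaging, a signal filter, other variance models, a replicate block and leaving out each pool. The sequences of the antigens and the real-time PCR were not analysed here.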

Additional observations from a re-analysis of the deposited data

How the results depend on the processing

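The number of antigens past the adjusted p was 0 in every alternative run, and the other counts moved. Without 1 pool, from 0 to 5 antigens were lower and from 0 to 4 higher at an unadjusted p under 0.05, and from 6 to 11 reached 2-fold, where the lone pool was assumed to vary like those of the other diet. Lower were 0 without carnitine pool 1, 1 without carnitine pool 2 or control pool 1, and 5 without control pool 2. Higher were 0 without either carnitine pool and 4 without control pool 2, where 11 reached 2-fold. With no variance trend 1 was lower, CD38, and CD9 and CD151 were no longer under the threshold. With a one-factor analysis of variance 3 were lower, and CD9 was not among them. The count at 2-fold was 2 with a floor at the 25th percentile and 0 with an offset of 64, which both damp dim signals. With a filter at the median signal 0 were higher, since CD209 is dim and was not tested. With the replicate number as a block 3 were lower and 0 higher, where CD8A took the place of CD38 beside CD9 and CD151, and CD209 was no longer under the threshold. The sample titles do not say whether the replicate numbers pair the pools, and this was not tested. The difference of pool 1 and pool 2 correlated between the diets at r = 0.0049 across 23999 probe sets, which are not independent replicates. Over the 40 antigens r was 0.45.

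Without 1 pool the median of the T and NK cell antigens above the median signal ranged from -0.94 to -0.068, that of the Kupffer and other myeloid antigens from -0.077 to 0.096 and that of the broadly expressed antigens from -0.30 to -0.18. With members at any signal the T and NK median was 0.31 and the myeloid median 0.18. No B cell antigen lay above the median signal, so that this median could not be given. Of 20 genes named by rule 11 kept their direction in every alternative run. With the mean over probe sets CD163 turned to 0.62 and CD5L to -0.027. Leaving out 1 pool turned CD163 (from -0.69 to 0.20), CD180 (-0.66 to 2.36), CD2 (-0.35 to 1.79), CD247 (-0.89 to 0.31), CD3D (-0.24 to 4.22), CD3E (-0.56 to 0.052), CD4 (-0.71 to 0.31), CD5L (-0.10 to 0.24) and CD74 (-0.44 to 0.13); the cause was not tested.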
